A study of Homo sapiens with 6 samples.

Results

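The desmosome genes described here were a set of 10 of the 50868 genes listed in the RNA-seq tables: the desmogleins DSG2 and DSG3, the desmocollins DSC2 and DSC3, the plaque genes JUP and DSP, the plakophilins PKP1, PKP2 and PKP3, and PERP. The set was chosen by the measured fold change of DSG3, which was among the largest rises after SF3B4 depletion. The contrast between the groups was therefore used in the choice, and the values of the 10 genes in that contrast are given as a description without p-values. All 10 had 1 Ensembl identifier each in the tables. The study profiled RNA of a lung cancer cell line labelled A549 that had been given an siRNA against SF3B4 (3 libraries) or a scramble siRNA (3 libraries). An siRNA is a synthetic RNA duplex that leads a matching transcript to be cut, and SF3B4 encodes a subunit of the SF3b splicing complex. A549 is an established human line from a lung adenocarcinoma. No other agent or allele is named in the labels, and the siRNA dose and the time after transfection were likewise not given in the sources used here. The titles call the libraries biological replicates, without saying whether these were separate cultures, so the error behind each p-value is that among these 6 libraries and may be technical. In 2 of the SF3B4 siRNA libraries, replicates 2 and 3, the genotype field reads SF3B5 or SF3B6 instead; titles and treatment fields give SF3B4 for all 3, and these were followed.

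A desmosome is a button-like junction that ties the keratin filaments of neighbouring epithelial cells together. Desmogleins and desmocollins are calcium-dependent cadherins that bind each other across the gap between cells. Inside the cell, plakoglobin (encoded by JUP) and the plakophilins bind their tails, and desmoplakin (DSP) connects this plaque to keratin. DSG2 and DSC2 are the widespread forms found in simple epithelia, whereas DSG3, DSC3 and PKP1 are best known from stratified squamous epithelia such as skin and oral mucosa, where DSG3 is the target of autoantibodies in pemphigus vulgaris. PERP is a membrane protein of desmosomes and a known target of p53 and p63.

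SF3B4 itself had 22.0, 17.7 and 22.3 FPKM in the libraries with its siRNA, against 88.6, 92.0 and 93.8 FPKM in the control libraries, that is at 22.6% of its control level (log2 fold change -2.15, SE 0.10, limma adjusted p = 8.8e-05; exact two-sided permutation p = 0.1, the smallest that 3 against 3 allows). FPKM counts fragments per kilobase of transcript, scaled to the mapped fragments of the library, and so is a level per length. The steps between low values implied 17511125 to 18529764 fragments per library. Of 11 marker genes of A549, ALDH1A1, ALDH3A1, AKR1C1, AKR1C2 and CPS1 stayed under 0.12 FPKM in every library, the vimentin gene VIM averaged 1.54 FPKM in SF3B4 siRNA and 3.46 FPKM in control libraries, and the column headers of the tables read H1650, a different lung cancer line. These values go against the label, so the cells are called the libraries labelled A549. All 6 epithelial markers (EPCAM, CDH1, KRT7, KRT8, KRT18 and KRT19) were present, with summed levels of 1495 to 1559 FPKM in SF3B4 siRNA and 1352 to 1551 FPKM in control libraries.

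The desmosomal cadherin genes lie side by side on chromosome 18. The stretch before each start is shown for the 4 desmosome genes that were higher after SF3B4 siRNA in what follows. They are shown because they shared this direction between the groups, while their starts are unlike. The sequences are from RefSeq (GRCh38.p14), 250 bases before to 50 bases after a gene's start, 5′ to 3′ on the gene's own strand. That table held 8 of the 10 genes (not PKP2 and PKP3), and JUP and DSC2 had 2 starts each. Capitals mark the motifs that were searched on both strands: TGANTCA (bound by AP-1), CACCTG (an E-box bound by the SNAI and ZEB repressors), AACCGGT (grainyhead-like factors), CCAAT and TATAAA. The DSG3 window, chr18:31447491-31447790 on the plus strand, had a GC content of 44%, with 18.8% of all 35116 promoters in the table lower, and held none of the 5 motifs.
DSG3: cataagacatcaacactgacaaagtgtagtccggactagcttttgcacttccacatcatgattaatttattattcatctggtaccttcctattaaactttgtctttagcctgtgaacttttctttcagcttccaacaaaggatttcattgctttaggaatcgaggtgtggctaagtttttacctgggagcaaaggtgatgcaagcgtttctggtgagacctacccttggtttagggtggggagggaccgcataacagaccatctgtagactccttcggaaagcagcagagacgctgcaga
The DSG2 window, chr18:31497927-31498226 on the plus strand, was 76.7% GC (93.1% of promoters were lower) and held 2 separate E-box matches.
DSG2: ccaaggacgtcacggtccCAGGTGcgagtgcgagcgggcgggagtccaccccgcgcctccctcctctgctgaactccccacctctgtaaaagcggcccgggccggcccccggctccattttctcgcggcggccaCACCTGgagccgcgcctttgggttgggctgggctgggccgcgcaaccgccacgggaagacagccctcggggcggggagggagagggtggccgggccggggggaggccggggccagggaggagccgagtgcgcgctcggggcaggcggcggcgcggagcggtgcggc
The PERP window, chr6:138107370-138107669 on the minus strand, was 77% GC and held 1 AP-1 match, a motif present in 7.71% of promoters.
PERP: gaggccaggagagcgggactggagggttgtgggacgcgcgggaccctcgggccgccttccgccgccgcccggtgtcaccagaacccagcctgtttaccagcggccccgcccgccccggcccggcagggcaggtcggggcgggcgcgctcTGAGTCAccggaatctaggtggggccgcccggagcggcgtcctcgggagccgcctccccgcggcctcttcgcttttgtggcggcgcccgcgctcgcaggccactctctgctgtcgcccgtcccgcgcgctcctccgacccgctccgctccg
JUP is shown for the window that held the E-box, chr17:41785927-41786226 on the minus strand, with 66.7% GC and 2 E-box matches. The other JUP window, chr17:41786662-41786961, held a CCAAT match.
JUP: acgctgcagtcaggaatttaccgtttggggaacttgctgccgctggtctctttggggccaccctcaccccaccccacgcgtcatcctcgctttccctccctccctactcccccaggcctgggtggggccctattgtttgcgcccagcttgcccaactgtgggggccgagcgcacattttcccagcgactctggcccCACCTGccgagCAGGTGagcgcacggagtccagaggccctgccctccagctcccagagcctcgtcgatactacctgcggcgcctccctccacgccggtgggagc
The CACCTG E-box was found before 4 of the 8 genes (DSC2, DSG2, DSP and JUP) and in 20.6% of all promoters, and CCAAT before DSC3 and JUP and in 34.6%. AACCGGT (0.772% of promoters) and TATAAA (11.5%) were found before none of the 8. These gene counts take a gene as having a motif if any of its windows held it, whereas the percentages are of single windows. The 8 genes had 10 windows. For DSC2 and JUP the other window held no E-box, and for JUP the window with the E-box held no CCAAT. The counts and percentages are therefore in unlike units, and nothing is read from their difference. The matches did not overlap each other. Of the factors that bind these E-boxes, SNAI2 was listed at 0 in all 6 libraries and ZEB1 and ZEB2 were at most 0.0028 FPKM, while SNAI1 was expressed (given with the epithelial factors below).

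Within each group, the 10 genes spanned a wide range of levels in FPKM, and their order by mean was the same in both groups. JUP was highest, followed by PERP, DSG2, PKP3, DSP, DSG3, DSC2, PKP2, PKP1 and DSC3. In the SF3B4 siRNA libraries the ranges of neighbours in this order did not overlap. In the control libraries 3 pairs of neighbours overlapped, namely DSG2 with PKP3 (22.8 to 30.3 and 20.1 to 25.5 FPKM), DSG3 with DSC2 (2.86 to 4.12 and 2.19 to 2.88 FPKM) and PKP2 with PKP1 (1.35 to 1.85 and 0.845 to 1.68 FPKM). JUP alone lay above 97.3% of all tested genes in mean FPKM, and DSG3 above 57.0%.

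**Figure D1:**
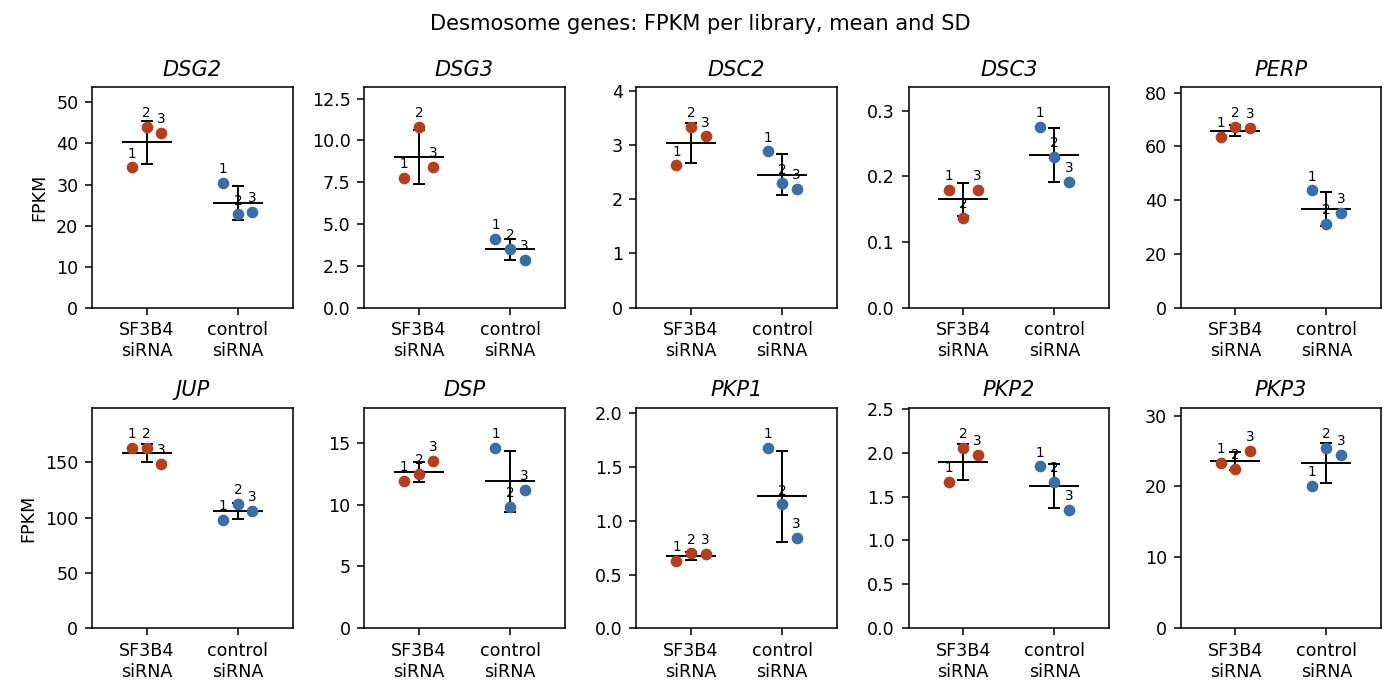
FPKM (y axis, from 0, a scale of its own for each gene) of the 10 desmosome genes in the SF3B4 siRNA libraries (red) and the control siRNA libraries (blue). Each numbered point is 1 library with its replicate number, and the bars are the mean ± SD of 3. DSG2, DSG3, PERP and JUP lie higher in all SF3B4 siRNA libraries than in any control library, and PKP1 and DSC3 lie lower.

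Genes with at least 1 FPKM in at least 3 of the 6 libraries entered the comparison, 9685 in all. Of the 10 desmosome genes 8 entered, and PKP1 and DSC3 did not. The 8 passed this filter in both groups, since each was above 1 FPKM in every library. In the limma fit, 34.1% of the 9685 genes were past an adjusted p of 0.05, 16% higher and 18.1% lower in SF3B4 siRNA libraries. Among the 8 desmosome genes 4 were past it, all higher, and 0 were lower. These counts come from the contrast used to choose the set and nothing is read from them. The median log2 fold change of the 8 was 0.44, beside -0.0035 for all genes tested. All fold changes were computed from log2(FPKM + 0.1), so those of low genes come out too small. In RNA of a whole culture, more RNA per cell and more cells of a type cannot be told apart, nor can less RNA per cell and fewer such cells.

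DSG3, the gene behind the choice of the set, had 7.77, 10.8 and 8.43 FPKM in the SF3B4 siRNA libraries, against 4.12, 3.51 and 2.86 FPKM in the control libraries. All 3 SF3B4 siRNA libraries lay above the highest control, and replicate 2 was the highest of them. The log2 fold change was 1.34 with an SE of 0.17, the 35th largest rise of the 9685 genes, and it was 1.204 to 1.46 when any 1 library was left out. DSG3 (ENSG00000134757, GRCh38 chr18:31447795-31478702, plus strand) has 1 annotated transcript of 5525 bases, so its values convert to fragments: 752, 1081 and 863 in the SF3B4 siRNA libraries and 415, 344 and 287 in the control libraries. The coefficient of variation from counting error alone was then no more than 5.90%.

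DSG2, the desmoglein of simple epithelia, was the more abundant of the pair. It had 34.2, 44.0 and 42.6 FPKM in the SF3B4 siRNA libraries, against 30.3, 22.8 and 23.4 FPKM in the control libraries. The groups did not overlap, but SF3B4 siRNA replicate 1 and control replicate 1 came close to each other. The log2 fold change was 0.66 with an SE of 0.14. DSG2 lies at chr18:31498043-31549008, next to DSG3. An antisense gene, DSG2-AS1, shares 2.76% of its exons and was listed at 0.

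Because DSG3 changed by more than DSG2, the make-up of the desmoglein transcripts differed between groups. DSG3 made up 18.5%, 19.7% and 16.5% of the summed desmoglein FPKM in the SF3B4 siRNA libraries, against 11.96%, 13.3% and 10.9% in the control libraries. DSG2 remained the main desmoglein in every library, at 4.07 to 5.05 times the level of DSG3 after SF3B4 siRNA and 6.49 to 8.17 times in controls. These shares rest on the same values as the fold changes and are a description.

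The desmocollins stayed low. DSC2, the widespread desmocollin, had 2.62, 3.33 and 3.16 FPKM in the SF3B4 siRNA libraries, against 2.88, 2.29 and 2.19 FPKM in the control libraries. The groups overlapped, through control replicate 1 and SF3B4 siRNA replicate 1, and the log2 fold change was 0.30 with an SE of 0.14. DSC3, the desmocollin of stratified epithelia, had 0.180, 0.136 and 0.179 FPKM in the SF3B4 siRNA libraries, against 0.275, 0.230 and 0.192 FPKM in the control libraries. That is at most 17.2 to 35.0 fragments per library by its longest transcript. The counting error of the library with the fewest fragments was therefore at least 24.1%. DSC3 was lower in each SF3B4 siRNA library than in any control, the opposite side from DSG3, and without the filter its log2 fold change was -0.32 (SE 0.19). The summed desmogleins were 15.0, 15.8 and 15.3 times the summed desmocollins in the SF3B4 siRNA libraries, against 10.9, 10.4 and 10.99 times in the control libraries, with no overlap.

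**Figure D2:**
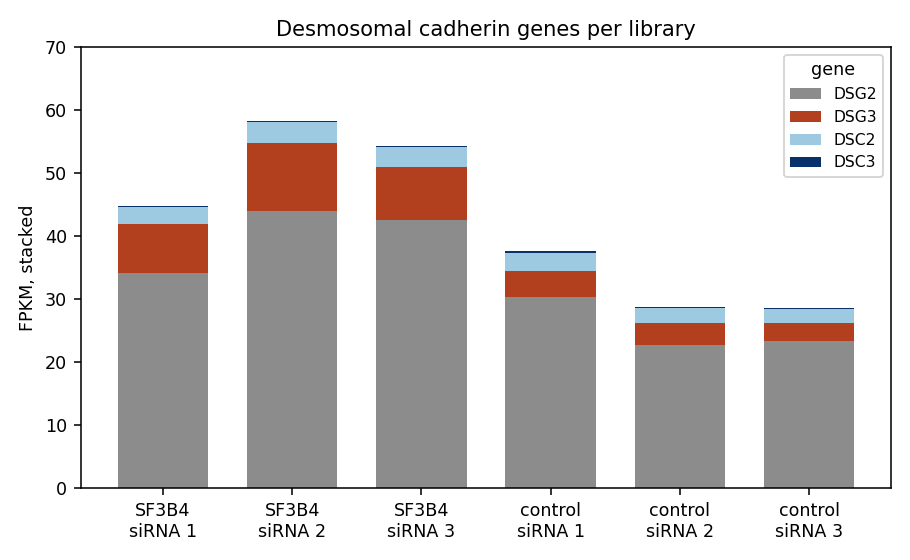
Stacked FPKM (y axis) of the 4 expressed desmosomal cadherin genes in each library (x axis), SF3B4 siRNA replicates 1 to 3 on the left and control siRNA replicates 1 to 3 on the right. The sums are 44.8, 58.3 and 54.3 FPKM in SF3B4 siRNA libraries and 37.6, 28.8 and 28.6 FPKM in control libraries, DSG2 is the largest part of each bar, and the DSG3 part is larger on the left.

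The 7 desmosomal cadherin genes form a cluster of 559 kb on chromosome 18 (chr18:30990008-31549008), with the desmocollins DSC3, DSC2 and DSC1 on the minus strand, followed by DSG1, DSG4, DSG3 and DSG2 on the plus strand. DSG1 and DSG4, desmogleins of differentiated epidermis and hair, were listed at 0 in all 6 libraries. DSC1, the desmocollin of upper epidermis, was listed at 0.0126 FPKM in SF3B4 siRNA replicate 3 and at 0 in the other libraries. The cluster thus had transcripts from both ends, while the 3 genes in between were at or near 0. From the desmocollin end to the desmoglein end, the mean levels of the other 4 genes were 0.165, 3.04, 9.003 and 40.3 FPKM in SF3B4 siRNA libraries and 0.232, 2.46, 3.49 and 25.5 FPKM in control libraries, for DSC3, DSC2, DSG3 and DSG2 in that order.

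**Figure D3:**
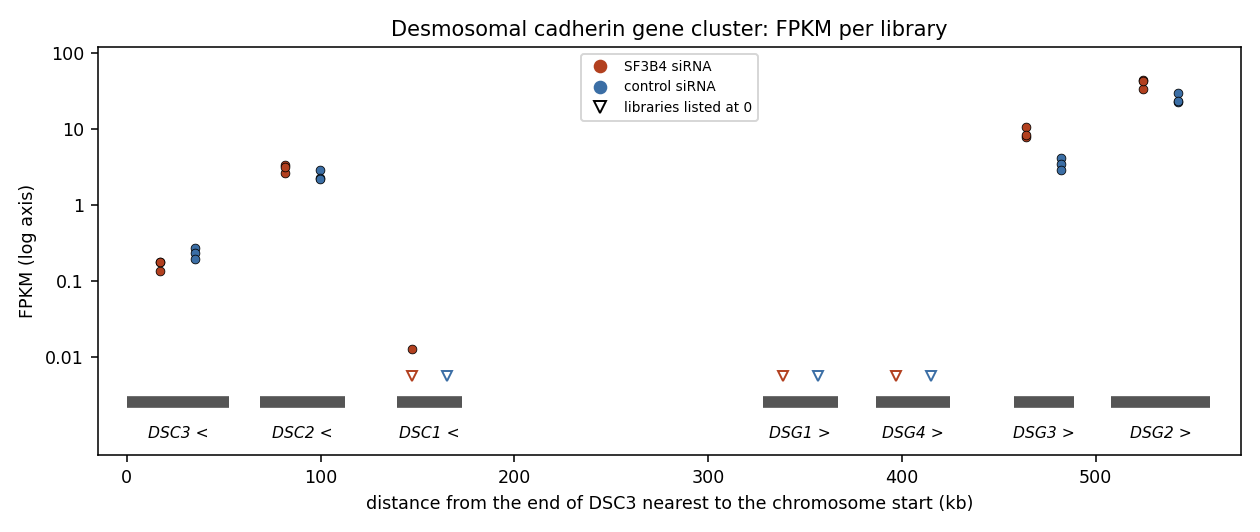
FPKM per library (y axis, log scale) of the 7 protein-coding genes of the desmosomal cadherin cluster, placed by distance in kb (x axis); grey bars are the genes and the arrowheads beside the names their strand. Red points are SF3B4 siRNA and blue points control siRNA libraries, and open triangles stand for libraries listed at 0. DSG1 and DSG4 have only triangles, and DSG3 is the gene whose colours are farthest apart.

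PERP, the tetraspan membrane protein of desmosomes, had the second largest log2 fold change of the 8 tested desmosome genes. It had 63.5, 67.2 and 66.9 FPKM in the SF3B4 siRNA libraries, against 43.6, 31.1 and 35.2 FPKM in the control libraries. The SF3B4 siRNA libraries lay close together and well above all controls, of which replicate 1 was the highest. The log2 fold change was 0.86 with an SE of 0.12. PERP has 1 transcript of 4290 bases (chr6:138088505-138107511, minus strand), and its pseudogenes PERPP1 and PERPP2 were listed at 0.971 FPKM or less.

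JUP encodes plakoglobin, which binds cadherin tails in desmosomes and in adherens junctions, and it accounted for about as much FPKM as the other 9 genes together (47.8% to 52.9% in SF3B4 siRNA and 45.1% to 53.5% in control libraries). In GRCh38, JUP lies at chr17:41754604-41786931 and DSP at chr6:7541575-7586717. JUP had 163.4, 163.1 and 148.9 FPKM in the SF3B4 siRNA libraries, against 98.2, 112.7 and 106.2 FPKM in the control libraries. The groups were well apart, and the log2 fold change was 0.58 with an SE of 0.07. DSP, the linker to keratin, had 11.9, 12.5 and 13.5 FPKM in the SF3B4 siRNA libraries, against 14.6, 9.85 and 11.2 FPKM in the control libraries. The groups overlapped, since control replicate 1 was the highest of all 6 libraries, and the log2 fold change was 0.11 with an SE of 0.14. It was -0.02 without control replicate 2, 0.27 without control replicate 1 and 0.06 to 0.15 without any of the other libraries.

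The plakophilins are armadillo-repeat proteins that cluster cadherins and desmoplakin. They lie apart in the genome, PKP1 at chr1:201283452-201332993, PKP2 at chr12:32790745-32896840 and PKP3 at chr11:392614-404908. PKP3, the most abundant, had 23.3, 22.4 and 25 FPKM in the SF3B4 siRNA libraries, against 20.1, 25.5 and 24.4 FPKM in the control libraries. The groups overlapped and the log2 fold change of 0.02 (SE 0.10) was within the spread; it was -0.08 without control replicate 1 and -0.02 without SF3B4 siRNA replicate 3. PKP2, which is also the plakophilin of heart muscle, had 1.67, 2.06 and 1.97 FPKM in the SF3B4 siRNA libraries, against 1.85, 1.67 and 1.35 FPKM in the control libraries, again with overlap (log2 fold change 0.22, SE 0.15). PKP1 of stratified epithelia had 0.626, 0.698 and 0.696 FPKM in the SF3B4 siRNA libraries, against 1.68, 1.15 and 0.845 FPKM in the control libraries. PKP1 was lower in each SF3B4 siRNA library than in any control, but its controls differed among themselves by more than the 2 group means did, and without the filter the log2 fold change was -0.73 (SE 0.24). Without the filter, 10.9% of 24450 genes were past an adjusted p of 0.05, and of the 10 desmosome genes the same number as before, 4, were past it, PKP1 and DSC3 not among them. PKP3 made up 91.1%, 89.1% and 90.4% of plakophilin FPKM in the SF3B4 siRNA libraries, against 85.1%, 90.0% and 91.8% in the control libraries.

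Over the 10 genes, the groups did not overlap in 6, with SF3B4 siRNA above control in 4 and below it in 2. Among the 8 that entered the comparison this held for 4. Of all 9685 genes tested, 49.5% did not overlap, 23.8% with SF3B4 siRNA above and 25.7% with SF3B4 siRNA below. Of the 3 genes best known from stratified epithelia, DSG3 was higher, and PKP1 and DSC3 were lower. Of the plaque genes JUP was higher, while DSP and PKP3 differed by less than the spread between libraries.

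The control libraries differed among themselves in a way the desmosome genes shared. Control replicate 1 was the highest control in 8 of the 10 genes, against 43.0% of all tested genes, and the lowest control in the other two, JUP and PKP3. These 2 genes have GC-rich transcripts (61.5% and 66.7% GC), and the other 6 tested genes lie between 38.9% (DSC2) and 47.9% (DSP). Of the untested genes, DSC3 has 39.9% GC and PKP1 56.4%, and control replicate 1 was the highest control in both. All tested coding genes were split into 5 equal groups by GC content. In the group with the lowest GC content, control replicate 1 lay above the mean of control replicates 2 and 3 by a median log2 difference of 0.22. The median difference was -0.15 in the group with the highest GC content. It was -0.07 in the group from 55.2% to 60.2% GC, the range in which PKP1 lies. The same difference was 0.37 for DSG3, 0.39 for DSG2, 0.40 for PERP, 0.47 for DSP and -0.31 for PKP3. The median log2 fold change between the groups was -0.03 in the lowest and -0.01 in the highest of these groups. Without control replicate 1, the log2 fold changes were 1.46 for DSG3, 0.99 for PERP, 0.79 for DSG2 and 0.53 for JUP. Among SF3B4 siRNA libraries, replicate 2 was the highest in 6 of the 10 genes, DSG2, DSG3, DSC2, PKP1, PKP2 and PERP, against 31.5% of tested genes.

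**Figure D4:**
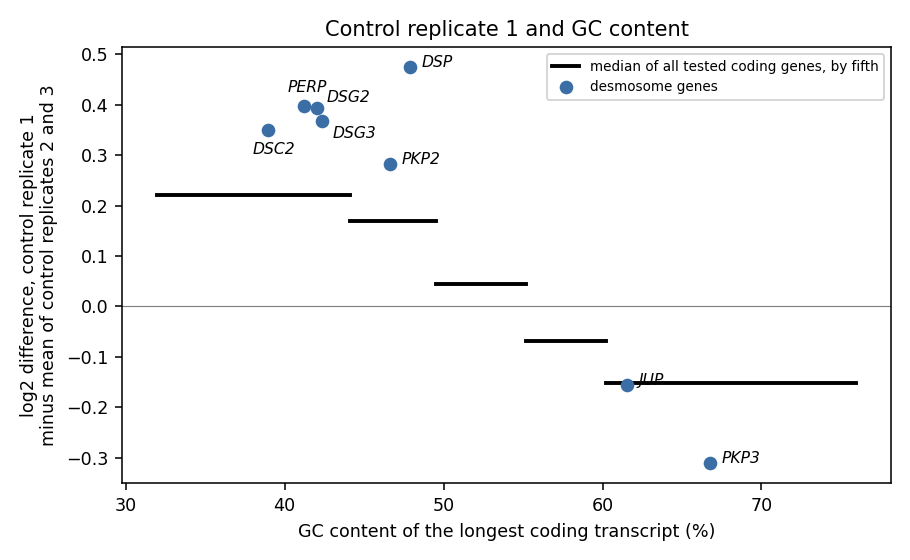
Log2 difference between control replicate 1 and the mean of control replicates 2 and 3 (y axis) against the GC content of the longest coding transcript (x axis, %) for the 8 tested desmosome genes (blue points). Black lines are the medians of all tested coding genes in 5 equal groups by GC content, each drawn over its range; DSP, PERP, DSG2, DSG3, DSC2 and PKP2 lie above 0 and JUP and PKP3 below.

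The 3′ UTRs were searched on the transcript strand for GCCTTCA and CCTTCAA, a pair of overlapping 7-mers singled out earlier on these same data for being common in genes that fell. Of 8380 tested genes with an annotated 3′ UTR in a complete coding transcript, 1710 (20.4%) carried either, and 32.9% of these carriers were past the threshold as lower, against 15.1% of the other 6670 genes. The 7-mers were picked for such a difference, so nothing is read from it. It was also not matched for 3′ UTR length. Among the 10 desmosome genes 4 carried one, beside the 20.4% of tested genes. The longest 3′ UTR was at least 2000 bases in these carriers (DSC2, DSC3, PKP1 and PERP) and in DSG2 and DSG3. It was shorter in JUP, DSP, PKP2 and PKP3. Of tested genes with a 3′ UTR of at least 2000 bases, 40.3% carried either 7-mer. DSG2, DSG3, JUP, DSP, PKP2 and PKP3 carried none. The 4 sites are shown with their neighbouring bases because the carriers include the only 2 desmosome genes lower in every SF3B4 siRNA library. Capitals mark the 7-mer. In DSC3 the 2 7-mers overlap, with GCCTTCA in capitals and the last base of CCTTCAA in lower case. The positions are chr18:31061047-31061075 (DSC2, minus strand), chr18:30992599-30992627 (DSC3, minus strand), chr1:201332246-201332274 (PKP1, plus strand) and chr6:138089060-138089088 (PERP, minus strand), all in GRCh38 from GENCODE 29.
DSC2: aaagtatagaaGCCTTCActtttcaatac
DSC3: ggaagatgcagGCCTTCAagggcaaggag
PKP1: tgttcctcccaCCTTCAAagaatgaagag
PERP: tgatccccctaCCTTCAAgattctctgat
Of these carriers PKP1 and DSC3 were lower, PERP was higher, and DSC2 overlapped between groups.

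The 5 genes whose profile over the 6 libraries was nearest to that of DSG3, by Euclidean distance of centred log2(FPKM + 0.1) values, were CEMIP2 (distance 0.19), APOL2 (0.30), LINC02967 (0.33), GSDMC (0.34) and STX12 (0.34), beside a median distance of 1.76 over all tested genes. CEMIP2, a cell-surface hyaluronidase gene, had 8.02, 10.1 and 9.10 FPKM in the SF3B4 siRNA libraries, against 4.17, 3.53 and 3.15 FPKM in the control libraries. This likeness is how these genes were found and is a description. Of the desmosome genes PERP was nearest to DSG3, at rank 110 of 9684, then DSG2 at rank 228 and JUP at rank 532, while PKP3 was as far as the median gene, at 1.77.

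Other junction and adhesion genes were taken as 7 lists for comparison, 81 genes of which 56 were tested. Of these, 13 rose and 9 fell, so that 39.3% were past the threshold, beside 34.1% of all genes, with a median log2 fold change of 0.04. Without SF3B4 siRNA replicate 1, 9 of them rose and 5 fell. In the desmosome-related list, EVPL, which encodes the plakin envoplakin, rose to 5.45 ± 1.56 FPKM in SF3B4 siRNA libraries, against 2.85 ± 0.226 FPKM in control libraries (SD, n = 3 each, as in all means below). PKP4, an armadillo-repeat relative of the plakophilins, fell to 1.56 ± 0.148 FPKM in SF3B4 siRNA libraries, against 2.204 ± 0.351 FPKM in control libraries. Both calls depended on single libraries. EVPL missed the threshold without control replicate 2 or SF3B4 siRNA replicate 3 (limma adjusted p = 0.056 for each), and PKP4 without any library other than control replicate 3 (limma adjusted p 0.067 to 0.13). Periplakin (PPL), the partner of envoplakin, was at 26.5 ± 0.243 and 23.9 ± 1.13 FPKM in SF3B4 siRNA and control libraries and did not pass (limma adjusted p = 0.11).

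Adherens junctions, which share plakoglobin with desmosomes, had 9 tested genes, of which 4 rose and 2 fell (median log2 fold change 0.37). NECTIN4, an immunoglobulin-like adhesion receptor, rose to 6.70 ± 0.733 FPKM in SF3B4 siRNA libraries, against 1.83 ± 0.156 FPKM in control libraries (log2 fold change 1.81, SE 0.12, limma adjusted p = 9.6e-05). CDH1, which encodes E-cadherin, rose to 75.0 ± 12.1 FPKM in SF3B4 siRNA libraries, against 41.2 ± 7.75 FPKM in control libraries (log2 fold change 0.87, SE 0.17, limma adjusted p = 0.0080). NECTIN1 also rose (log2 fold change 0.38, SE 0.06, limma adjusted p = 0.0038). CTNNB1, which encodes beta-catenin, the closest relative of plakoglobin, went the other way from JUP and fell to 11.3 ± 0.864 FPKM in SF3B4 siRNA libraries, against 16.8 ± 2.17 FPKM in control libraries (log2 fold change -0.56, SE 0.11, limma adjusted p = 0.0065).

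Tight junction genes went both ways, with 3 of 13 tested higher and 3 lower (median -0.18). TJP3, which encodes the scaffold ZO-3, rose to 13.8 ± 0.920 FPKM in SF3B4 siRNA libraries, against 9.65 ± 0.397 FPKM in control libraries (limma adjusted p = 0.0029). The claudin gene CLDN1 and the ZO-1 gene TJP1 fell with log2 fold changes of -0.59 and -0.56, but CLDN1 missed the threshold in 4 of 6 fits that left out 1 library (limma adjusted p 0.057 to 0.077) and TJP1 in 3 of 6 (0.076 to 0.078). For both these were the fits without control replicate 1 or SF3B4 siRNA replicate 1, for CLDN1 also those without control replicate 2 or SF3B4 siRNA replicate 3, and for TJP1 that without control replicate 3.

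Hemidesmosomes, which tie keratin to the basement membrane, had 2 of 8 tested genes higher and 1 lower (median -0.02). The laminin gene LAMB3 rose to 43.6 ± 1.02 FPKM in SF3B4 siRNA libraries, against 31.2 ± 1.24 FPKM in control libraries (limma adjusted p = 0.0012), and the tetraspanin gene CD151 fell to 45.3 ± 1.02 FPKM in SF3B4 siRNA libraries, against 61.3 ± 4.26 FPKM in control libraries (limma adjusted p = 0.0030). POLR2L on the opposite strand shares 6.53% of the exons of CD151. COL17A1 rose with a log2 fold change of 0.33, a call lost without any library other than SF3B4 siRNA replicate 3 (limma adjusted p 0.051 to 0.078). Among keratins, the filaments to which desmosomes attach, 1 of 8 tested genes was called, or 12.5% beside 34.1% of all genes. It was KRT16 (30.6 ± 2.08 FPKM in SF3B4 siRNA and 24.4 ± 2.21 FPKM in control libraries), whose call was lost in 4 of 6 such fits (without control replicate 1 or 3 or SF3B4 siRNA replicate 1 or 2, limma adjusted p 0.053 to 0.081) and whose near-identical copies make its value uncertain. KRT8 (244 ± 2.19 FPKM in SF3B4 siRNA and 232 ± 13.9 FPKM in control libraries) and KRT18 (281 ± 21.8 FPKM in SF3B4 siRNA and 257 ± 18.9 FPKM in control libraries) did not pass (limma adjusted p 0.36 and 0.26).

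Of 9 tested epithelial transcription and splicing factors, 2 rose (median log2 fold change 0.18). ELF3 rose to 33.9 ± 0.426 FPKM in SF3B4 siRNA libraries, against 22.4 ± 0.508 FPKM in control libraries (limma adjusted p = 0.00047). However, the antisense gene ELF3-AS1 (mean 13.6 FPKM over the 6 libraries) shares 9.23% of the exons of ELF3. AL691482.3 on the same strand (mean 3.16 FPKM) also shares 9.23% of them. SNAI1, a repressor of E-cadherin, rose to 43.9 ± 2.44 FPKM in SF3B4 siRNA libraries, against 33.9 ± 3.59 FPKM in control libraries (limma adjusted p = 0.017), a call lost without SF3B4 siRNA replicate 1 (0.058). TP63, whose product p63 drives PERP and other junction genes in squamous epithelium, stayed at or under 0.0617 FPKM in every library. Of 6 kinases and proteases known to act on desmosomal proteins, ADAM17, a protease that sheds cadherin ectodomains, fell to 1.96 ± 0.217 FPKM in SF3B4 siRNA libraries, against 3.56 ± 0.400 FPKM in control libraries (limma adjusted p = 0.0026). The antisense partner of ADAM17, IAH1, shares 12.3% of its exons. EGFR was at 7.26 ± 1.42 and 11.1 ± 2.79 FPKM in SF3B4 siRNA and control libraries and did not pass (limma adjusted p = 0.065).

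**Figure D5:**
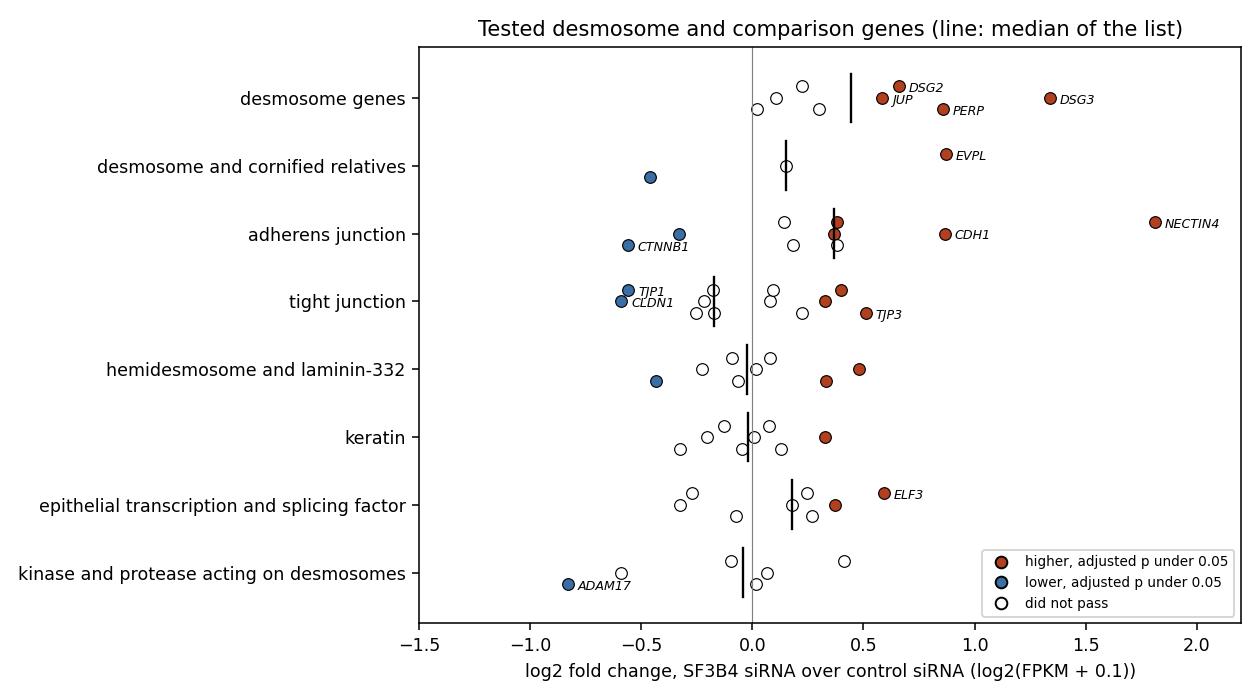
Log2 fold change of SF3B4 siRNA over control siRNA (x axis, on log2(FPKM + 0.1)) for the tested genes of the desmosome set and of 7 comparison lists (rows), with 2 comparison genes not drawn. Filled points passed an adjusted p of 0.05 (red higher, blue lower), open points did not, and the vertical line in each row is the median of all its tested genes, which is 0.44 for the desmosome genes and between -0.18 and 0.37 for the comparison lists.

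Markers of squamous and basal epithelium were examined because DSG3, DSC3 and PKP1 belong to such cells. Of 11 such markers 6 averaged at least 1 FPKM, and KRT5, KRT13 and TP63 stayed under 0.12 FPKM in every library. Their summed level was 47.8 to 49.6 FPKM in SF3B4 siRNA and 53.0 to 53.6 FPKM in control libraries. The members of this list went both ways: IVL averaged 17.7 FPKM in SF3B4 siRNA and 24.7 FPKM in control libraries, and SERPINB5 1.12 FPKM in SF3B4 siRNA and 2.45 FPKM in control libraries. TRIM29 averaged 13.9 FPKM in SF3B4 siRNA and 9.68 FPKM in control libraries, and SPRR1B 6.21 FPKM in SF3B4 siRNA and 4.94 FPKM in control libraries. Lung lineage markers summed to 2.63 to 3.15 FPKM in SF3B4 siRNA and 1.01 to 1.74 FPKM in control libraries, with SFTPB and SFTPC at 0. Immune markers summed to 4.71 to 6.59 FPKM in SF3B4 siRNA and 2.45 to 2.87 FPKM in control libraries, nearly all of it CD14, with PTPRC and LYZ at 0. Fibroblast markers summed to 2.88 to 3.23 FPKM in SF3B4 siRNA and 2.13 to 2.24 FPKM in control libraries. Endothelial markers summed to at most 0.151 FPKM in any library. The part of these shifts in the desmosome values was not tested.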

How the data were processed

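RNA of 6 libraries labelled A549, 3 per group, was profiled by RNA-seq. For each library, the authors deposited a table of FPKM values over 50868 Ensembl identifiers. HISAT2 2.0.4, StringTie 1.3.0 and GRCh38 are named, without roles, per the submitters' processing notes; their annotation and strand setting were not named in the sources used here. Groups and replicate numbers came from the titles. Symbols were matched for 49659 identifiers, and GENCODE 29 (GRCh38) supplied positions, lengths, GC content and 3' UTRs for 50111. That annotation may differ from the authors' own.

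FPKM values are not counts, so limma 3.58.1 in R 4.3.3 (trend and robust, two-sided, Benjamini-Hochberg over 9685 genes, threshold 0.05) was run on log2(FPKM + 0.1). In genes with 1 transcript, 98.9% to 99.1% of low values were whole fragments to within 0.02, which gave the implied depth; genes with several transcripts did not convert. The fit was tested on simulated data. Alternatives were other pseudocounts, filters and scalings, limma without its trend and robust options, a replicate block and leaving out each library.

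The desmosome genes, comparison lists, markers and 7-mers were chosen with earlier results of these data known. Named genes were all 10 desmosome genes, SF3B4, up to 4 called genes per list by size of change (up to 2 by p where none was called), the 5 nearest to DSG3 and the cluster's other cadherins. PPL, KRT8, KRT18, EGFR, VIM, TP63, IVL, SERPINB5, TRIM29, SPRR1B, SNAI2, ZEB1 and ZEB2 were chosen after their values were seen. Some comparison genes are not reported by name here, but are part of the list counts and medians.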

Additional observations from a re-analysis of the deposited data

How the results depend on the processing

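The count of 4 desmosome genes past the threshold was also 4 in each of the 14 alternatives, from which nothing is read since the contrast was used to choose the set. SF3B4 stayed between -2.21 and -2.04 on the log2 scale. Genes called over all tested were 1546 higher and 1752 lower, and became 1027 higher and 940 lower with a mean FPKM minimum of 5, where fewer genes were tested. Comparison-list genes called higher went to 8 without the filter, against 13; those called lower went to 5 without the filter, 4 with that minimum and 5 with the replicate block, against 9. Leaving out 1 library gave 5 to 9 lower (5 without SF3B4 siRNA replicate 1) and 9 to 12 higher. The titles do not say whether the replicate numbers pair the libraries. Deviations of same-numbered libraries correlated at -0.08, 0.02 and -0.12, and those of differently numbered libraries at -0.07 to 0.14. These values show no shared replicate effect. With the replicate block 1290 genes were higher and 1537 lower. Left out in turn, libraries gave log2 fold changes of -0.0172 to 0.265 for DSP and -0.0823 to 0.0885 for PKP3 (-0.0209 without SF3B4 siRNA replicate 3), both changing sign. Of 31 named genes, 22 kept direction and call throughout and 7 lost the call somewhere. Where no cause is named, the cause was not tested. Depth limits DSC3 most.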
